A study of Mus musculus with 18 samples.

Results

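The actin contractile and Srf target genes described here are 41 mouse genes, taken from a list of names, of the 55335 gene identifiers counted in RNA-seq of O9-1 neural crest (NC) cells. They fall into 4 groups by role: 2 transcriptional regulators (Srf and Myocd), 15 smooth muscle genes, 15 general actin and myosin genes, and 9 focal adhesion and LIM domain genes. All 41 were found by symbol. The list was chosen with earlier results of these data known. O9-1 is a wildtype cranial NC line from mouse embryos, and every library came from this line in osteoblast differentiation medium, after transfection with small interfering RNA (siRNA). The 3 groups were Ctrl+vehicle (scramble siRNA, siCtrl, without FGF2), Ctrl+FGF2 (siCtrl with FGF2) and Y/T dKD+FGF2 (siY/T, which targets Yap and Taz together, with FGF2), each with 3 libraries at d2.5 and 3 at d5. The comparisons ask what FGF2 did to these genes and how their levels under FGF2 differed where Yap and Taz were reduced. The knockdown was measured only under FGF2, so neither its effect without FGF2 nor a change in the FGF2 effect could be estimated. Ctrl+FGF2 is part of both comparisons on each day.

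Serum response factor, the product of Srf, binds CArG boxes in promoters and drives many genes of the actin cytoskeleton. Its cofactors of the myocardin family, Myocd, Mrtfa and Mrtfb, link that activity to cell state, since Mrtf proteins are held in the cytoplasm by free actin and enter the nucleus as actin assembles into filaments. Yap and Taz act through Tead factors, are themselves sensitive to actin tension, and share a number of target genes with Srf. NC cells of the head give rise to bone and also to vascular smooth muscle, in which Acta2, Tagln, Cnn1 and Myh11 are the usual markers.

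Gene counts were between 10377151 and 14698525 per library (median 12330911), and no library stood apart from the others of its group. The targeted Yap1 was, at d2.5, at 134 to 140 CPM (counts per 1e6 gene counts, scaled with TMM factors within a day) in Ctrl+FGF2 and at 68.6 to 73.7 CPM in Y/T dKD+FGF2, and at 139 to 150 and 63 to 69.9 CPM at d5. Wwtr1, which encodes Taz, was at 233 to 238 and 138 to 149 CPM at d2.5 and at 201 to 206 and 115 to 120 CPM at d5 in the same order. The knockdown gave log2 fold changes of -0.96 ± 0.04 SE (d2.5) and -1.12 ± 0.05 (d5) in Yap1 and of -0.72 ± 0.04 and -0.80 ± 0.04 in Wwtr1, a partial loss of either transcript. With FGF2 alone at d2.5, Wwtr1 was higher (log2 fold change 0.65 ± 0.04 SE, from 149 to 152 CPM with vehicle) and Yap1 lower (-0.23 ± 0.04), and Wwtr1 in Y/T dKD+FGF2 was not called different from Ctrl+vehicle (-0.06 ± 0.04, adjusted p = 0.122). The NC markers Sox10 and Foxd3 had 0 counts in every library, whereas Twist1, Snai2 and Tfap2a were expressed.

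In libraries of this kind a smaller share of a cell type and less RNA per cell cannot be told apart. Of 10 markers of mural cells (vascular smooth muscle cells and pericytes) outside the 41 genes, Kcnmb1 and Pln had 0 counts in every library and 4 had enough counts for a test. The summed mural list was, at d2.5, at 657 to 709 CPM in Ctrl+vehicle, 385 to 401 in Ctrl+FGF2 and 367 to 385 in Y/T dKD+FGF2, and at 1457 to 1514, 1481 to 1618 and 1297 to 1319 CPM at d5. With FGF2 at d2.5, 3 of the 4 were lower (Pdgfrb, Cspg4 and Notch3) and 1 higher (Itga8), against 34.1% and 33.5% of all genes. The 8 osteoblast markers summed to 18470 to 18732, 10227 to 10499 and 12419 to 12819 CPM at d2.5 and to 30116 to 32444, 16798 to 18129 and 23156 to 24530 CPM at d5. With FGF2 at d2.5, 5 of 7 tested osteoblast markers were lower and 2 higher (Dmp1 and Spp1), against 34.1% and 33.5% of all genes. At d5, 4 of 8 were lower and 4 higher (Dmp1, Runx2, Sp7 and Spp1), against 23.7% and 23.5%. The knockdown raised 4 and lowered 1 (Col1a1) at d2.5, against 10.8% and 13.6%, and raised 8 at d5, against 15.6%. The 10 NC markers summed to 419 to 443, 292 to 298 and 262 to 271 CPM at d2.5 and to 329 to 340, 320 to 331 and 344 to 353 CPM at d5. With FGF2, 3 of 7 tested NC markers were lower and 0 higher at d2.5, against 34.1% and 33.5% of all genes. At d5, 3 were lower and 3 higher, against 23.7% and 23.5%. With the knockdown, 2 were lower and 1 higher at d2.5, against 13.6% and 10.8% of all genes. At d5 the knockdown lowered 3 and raised 4, against 16.1% and 15.6%. The skeletal and cardiac muscle, endothelial, glial and blood lists each summed to at most 4.34 CPM in every library, with Myod1, Ckm, Cdh5, Tie1, Fabp7, Lyz2 and Itgam at 0. The part of these other markers in the results below was not tested. Each day is its own batch in the labels, so a difference in level between d2.5 and d5 cannot be told apart from a batch difference, and CPM of the 2 days were scaled separately.

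The promoter windows of the 41 genes were searched for CArG boxes (a pair of C, 6 bases that are each A or T, and a pair of G), Tead hexamers (GGAATG or its reverse complement CATTCC) and AP-1 sites (TGANTCA), on both strands. RefSeq gave 41 windows of 300 bases, from 250 bases before to 50 after a start of transcription, for 34 of the 41 genes on GRCm38.p6; Myocd, Actb, Actg2, Tagln, Csrp2, Myh11 and Pxn had no entry. A CArG box stood in 11 of the 41 windows (26.8%) against 1.63% of all 32851 windows, in Srf, Actc1, Actg1, Cnn2, Myl6, Myl9, Vcl, Fhl1, Fhl2 and Lima1. The list is one of Srf target genes and Srf binds CArG boxes, so this higher share is not independent of how the list was made. A Tead hexamer stood in 12 windows (29.3% against 14.7% of all windows) and an AP-1 site in 5 (12.2% against 7.81%). Srf itself held a pair of CArG boxes, from -82 to -73 and from -62 to -53 relative to its start. Vcl held both a CArG box and a Tead hexamer, and Mylk, Actn4 and Myl12a each a Tead hexamer and an AP-1 site in the same window. Cald1 held a Tead hexamer and an AP-1 site in separate windows. No match overlapped a match to another motif. A match is a string of letters and not a measured binding site, and where none was found these letters are only absent from this window.

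**Figure D1:**
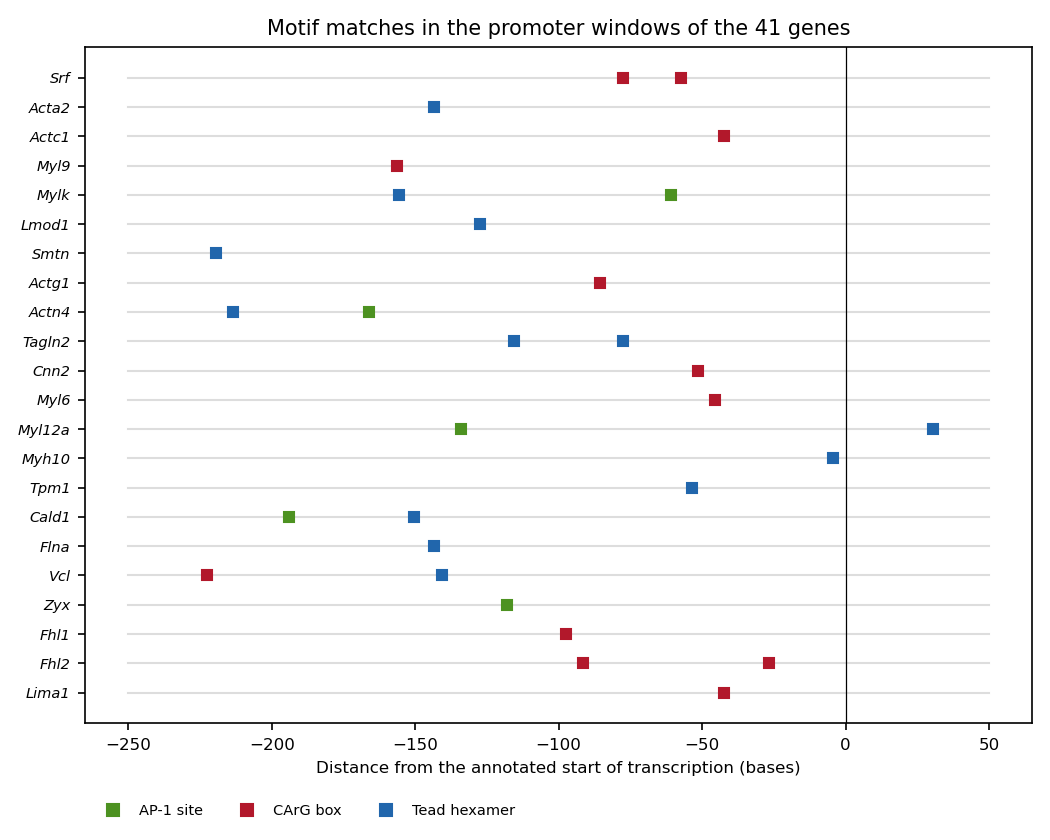
Matches to the CArG box, the Tead hexamer and the AP-1 site in the promoter windows of those of the 41 genes that hold any. The x axis is the distance from the annotated start of transcription in bases, each row is a gene and each square a match; all but the Tead hexamer of Myl12a lie before the start.

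These stretches show the matched motif in capitals, 5′ to 3′ on the gene's strand, for genes whose values are given below. The CArG boxes are shown for Srf (chr17:46556190-46556289, minus strand), Myl9 (chr2:156775258-156775357, plus), Vcl (chr14:20929148-20929225, plus), Actg1 (chr11:120348566-120348595, minus) and Cnn2 (chr10:79988534-79988563, plus), all outside the exons of their genes in GENCODE M21.
Srf: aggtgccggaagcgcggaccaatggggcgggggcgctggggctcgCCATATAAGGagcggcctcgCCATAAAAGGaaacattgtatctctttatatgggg
Myl9: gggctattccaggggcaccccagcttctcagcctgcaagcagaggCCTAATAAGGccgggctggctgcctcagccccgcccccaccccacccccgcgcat
Vcl: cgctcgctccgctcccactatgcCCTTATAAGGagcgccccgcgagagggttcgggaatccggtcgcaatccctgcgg
Actg1: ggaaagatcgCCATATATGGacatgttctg
Cnn2: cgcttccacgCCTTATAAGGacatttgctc
The Tead hexamers are shown for the contractile genes Lmod1 (chr1:135324638-135324733, plus) and Mylk (chr16:34784747-34784842, plus, inside the gene between exons), and with fewer bases for Acta2 (chr19:34255504-34255529, minus) and Tpm1 (chr9:67049254-67049279, minus), where GENCODE M21 places an exon of a longer transcript over the site.
Lmod1: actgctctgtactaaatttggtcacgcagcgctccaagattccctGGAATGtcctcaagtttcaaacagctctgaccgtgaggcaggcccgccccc
Mylk: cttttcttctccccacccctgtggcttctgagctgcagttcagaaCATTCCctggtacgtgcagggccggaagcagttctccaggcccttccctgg
Acta2: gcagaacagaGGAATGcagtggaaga
Tpm1: gctgtcctaaGGAATGcggtcgcccc

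With FGF2, most of the 41 genes were lower than with vehicle at d2.5 and higher at d5. At d2.5, 34 of the 41 had enough counts for a test, of which 28 were lower, 4 higher (Pxn, Synpo2, Tagln2 and Zyx) and 2 not called, where a call is a Benjamini-Hochberg adjusted p under 0.05 in edgeR's quasi-likelihood test over all genes. Over all 13677 genes tested, 34.1% were called lower and 33.5% higher. Because the list was chosen with earlier results of these data known, such shares describe it and do not test it. The median log2 fold change of the tested genes of the list was -0.49, against 0.00 over all genes. At d5, 37 were tested, of which 25 were higher, 4 lower and 8 not called, with a median of 0.27 against 0.02 over all 13304 genes, 23.5% of which were called higher and 23.7% lower. Together the 41 genes held 1.90% to 2.01% of the gene counts of a Ctrl+vehicle library at d2.5, 1.43% to 1.47% with FGF2 and 1.27% to 1.30% with FGF2 and the knockdown. At d5 the same shares were 2.07% to 2.15%, 2.60% to 2.66% and 2.53% to 2.59%. The genes that had too few counts at d2.5 were Myocd, Actc1, Actg2, Cnn1, Des, Myh11 and Fhl1.

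**Figure D2:**
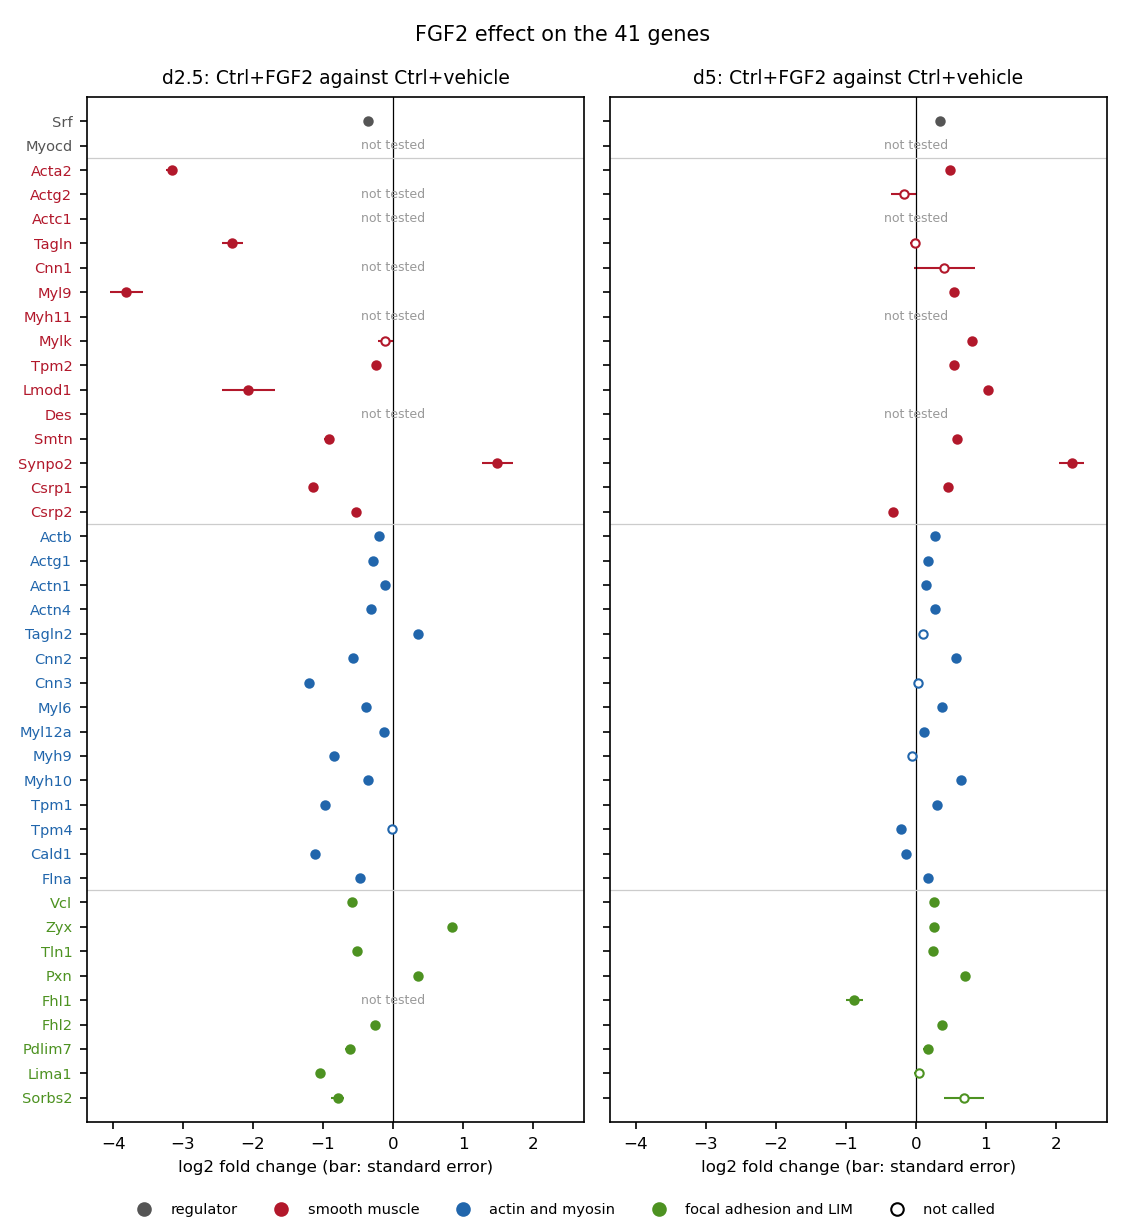
Log2 fold change of Ctrl+FGF2 against Ctrl+vehicle at d2.5 (left) and d5 (right) for each of the 41 genes, colored by role, with the standard error as a bar and open circles for genes not called. Most circles lie left of 0 at d2.5, down to -3.81 for Myl9, and right of 0 at d5, up to 2.23 for Synpo2.

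Srf (chr17:46548329-46556175, minus strand), the transcription factor of the list, followed the same course. At d2.5 it was at 46.8, 43.8 and 45.3 CPM in the Ctrl+vehicle libraries, at 38.1, 34.8 and 33.1 CPM in Ctrl+FGF2 and at 25.9, 27.4 and 26.3 CPM in Y/T dKD+FGF2. The 3 groups did not overlap and stepped down, with a log2 fold change of -0.36 ± 0.06 SE for FGF2 (adjusted p = 3.7e-06) and a further -0.41 ± 0.07 for the knockdown (adjusted p = 2.8e-05). At d5 it was at 35.1, 39.1 and 40.3 CPM with vehicle, at 49.5, 47.9 and 48.5 CPM with FGF2 and at 49.3, 55.3 and 52.4 CPM with FGF2 and the knockdown. Here FGF2 raised it (0.35 ± 0.06, adjusted p = 1.7e-04), and the knockdown libraries overlapped those of Ctrl+FGF2 (0.11 ± 0.06, adjusted p = 0.186). Myocd, the cofactor restricted to heart and smooth muscle, had between 1 and 4 counts over the 3 libraries of any group and was not tested. Of the 5 other cofactors listed, Mrtfa moved as Srf did: it was lower with FGF2 at d2.5 (-0.38 ± 0.05), lower again with the knockdown (-0.43 ± 0.06) and higher with FGF2 at d5 (0.30 ± 0.05). Mrtfb was lower with FGF2 at d2.5 (-0.51), Elk1 slightly so (-0.24), and Elk3, an Ets cofactor that competes with Mrtf proteins for Srf, was higher (0.82); none of these 3 was called with FGF2 at d5.

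The smooth muscle genes held the widest changes. Of the 15, 10 were tested at d2.5. With FGF2, 8 of these were lower and 1 higher (median log2 fold change -1.03), against 34.1% and 33.5% of all genes. At d5, 12 were tested, with 8 higher, 1 lower and a median of 0.52, against 23.5% and 23.7% of all genes called higher and lower. Acta2 (chr19:34241090-34255590, minus strand), the smooth muscle actin, was at 235, 169 and 197 CPM with vehicle at d2.5, at 21.7, 22.6 and 22.8 CPM with FGF2 and at 13, 15.1 and 13.6 CPM with FGF2 and the knockdown. FGF2 thus lowered it 8.96-fold (log2 fold change -3.16 ± 0.08 SE, adjusted p = 1.4e-24), and the knockdown lowered it a further 1.60-fold (-0.68 ± 0.13, adjusted p = 2.5e-04), with no overlap between groups. At d5 it was at 1834, 1915 and 1879 CPM, at 2448, 2810 and 2670 CPM and at 2068, 1908 and 2000 CPM in the same order. All 3 Ctrl+FGF2 libraries then lay above those with vehicle (0.49 ± 0.05, adjusted p = 9.5e-08), and the knockdown brought it down (-0.41 ± 0.05, adjusted p = 1.7e-06) to a level that overlapped that of Ctrl+vehicle.

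Myl9 (chr2:156775420-156781658, plus strand), the regulatory light chain of smooth muscle myosin, showed the largest fall of the tested genes of the list at d2.5. It was at 13.4, 8.4 and 11.1 CPM with vehicle and at 0.826, 0.62 and 0.851 CPM with FGF2 (14.1-fold lower, log2 fold change -3.81 ± 0.24 SE, adjusted p = 6.7e-15), a level that rested on 31 counts over the 3 libraries. The knockdown libraries, at 0.348, 0.0827 and 0.753 CPM and 14 counts in all, overlapped those of Ctrl+FGF2 and were not called different from them (-0.95 ± 0.53, adjusted p = 0.202). At d5 Myl9 was at 155, 149 and 143 CPM with vehicle, at 231, 209 and 214 CPM with FGF2 and at 191, 181 and 191 CPM with the knockdown, which puts the knockdown between the other groups without overlap. FGF2 raised it there (0.55 ± 0.04, adjusted p = 2.3e-08) and the knockdown lowered it (-0.22 ± 0.04, adjusted p = 9.3e-04).

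Tagln (transgelin), an actin-binding protein of early smooth muscle, fell with FGF2 at d2.5 and was not called at d5. At d2.5 its libraries were at 11.2, 10.6 and 11.3 CPM with vehicle, at 2.25, 2.17 and 2.27 CPM with FGF2 and at 1.3, 1.08 and 1.67 CPM with the knockdown. The fall with FGF2 was 4.92-fold (log2 fold change -2.30 ± 0.15 SE, adjusted p = 6.9e-15). The lower level with the knockdown (-0.72 ± 0.24, adjusted p = 0.0245) was no longer called in DESeq2, in a fit of all 18 libraries or on leaving out any 1 of 4 libraries (Ctrl+FGF2 replicates 1 and 3, Y/T dKD+FGF2 replicates 1 and 2), with log2 fold changes between -0.58 and -0.72. At d5 Tagln was at 74.4, 83.8 and 83 CPM, at 70.3, 84.3 and 84.6 CPM and at 76.9, 68 and 69.8 CPM in the same order, and neither the FGF2 (-0.01 ± 0.07, adjusted p = 0.895) nor the knockdown comparison (-0.16 ± 0.07, adjusted p = 0.0962) was called.

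**Figure D3:**
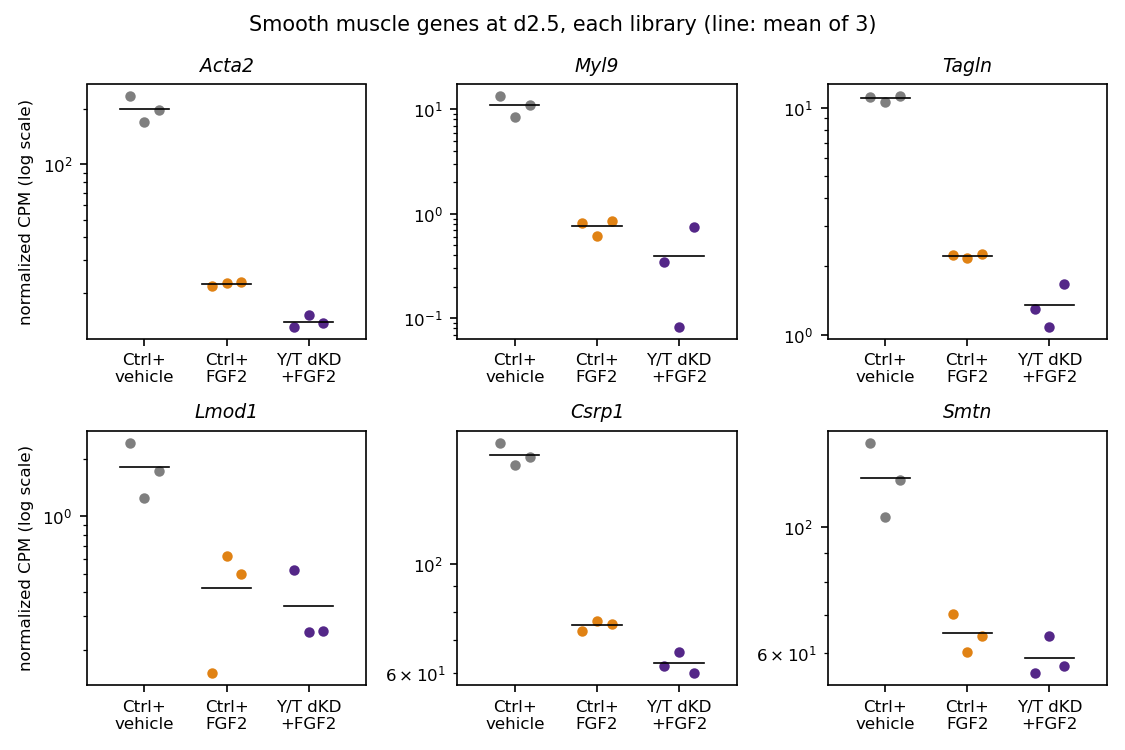
Normalized CPM on a log axis in each of the 9 d2.5 libraries, with a line at the mean of the 3 libraries of a group. Shown are 6 of the 8 smooth muscle genes called lower with FGF2. Csrp2 and Tpm2, which were called lower with smaller falls, Synpo2, which was higher, and Mylk, which was not called, are not shown. In each panel the 3 Ctrl+vehicle points lie above all points of the groups with FGF2; Acta2 falls from 169 to 235 CPM to at most 22.8 CPM.

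Lmod1 (leiomodin 1), which seeds actin filaments in smooth muscle, and Mylk (myosin light chain kinase), which starts contraction, differed between all 3 groups at d5. Lmod1 was at 2.44, 1.25 and 1.74 CPM with vehicle at d2.5 and at 0.15, 0.62 and 0.497 CPM with FGF2 (-2.07 ± 0.38, adjusted p = 1.8e-05, on 17 counts over the Ctrl+FGF2 libraries). At d5 it was at 32.2, 35.6 and 32.1 CPM with vehicle, at 66.6, 71.3 and 67.2 CPM with FGF2 and at 50.6, 49.2 and 47 CPM with the knockdown. FGF2 raised it 2.05-fold (log2 fold change 1.03 ± 0.06 SE, adjusted p = 2.1e-10), and the knockdown level lay between those of the other groups (-0.48 ± 0.05 against Ctrl+FGF2, adjusted p = 2.1e-06). Mylk was between 14.2 and 22.2 CPM in the 9 libraries at d2.5, where neither comparison was called (-0.11 ± 0.11 for FGF2 and 0.08 ± 0.11 for the knockdown). At d5 it was at 170, 189 and 177 CPM with vehicle, at 314, 307 and 311 CPM with FGF2 and at 202, 207 and 212 CPM with the knockdown. The 3 groups did not overlap, FGF2 raised it 1.74-fold (0.80 ± 0.04, adjusted p = 6.6e-11) and the knockdown lowered it (-0.59 ± 0.04, adjusted p = 4.9e-09).

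Synpo2 (synaptopodin 2), an actin-bundling protein of the Z-disc and of smooth muscle, was the smooth muscle gene that was higher with FGF2 on both days. It was at 2.14, 1.25 and 1.49 CPM with vehicle and at 5.63, 3.8 and 4.33 CPM with FGF2 at d2.5 (2.81-fold, log2 fold change 1.49 ± 0.22 SE, adjusted p = 5.8e-07). On d5 it was at 3.31, 2.02 and 2.27 CPM with vehicle, at 11.7, 11.6 and 12 CPM with FGF2 and at 10.3, 6.85 and 9.55 CPM with the knockdown, which is 4.70-fold higher with FGF2 (2.23 ± 0.18, adjusted p = 2.5e-08). Its d5 knockdown call (-0.41 ± 0.14, adjusted p = 0.0369) was lost in DESeq2 (-0.40) and, with log2 fold changes of -0.46 to -0.25, on leaving out any 1 of 6 libraries (Ctrl+vehicle replicate 3, Ctrl+FGF2 replicates 1, 2 and 3, Y/T dKD+FGF2 replicates 2 and 3). Csrp2, a LIM protein of vascular smooth muscle, was in contrast lower with FGF2 on both days. Its d2.5 libraries were at 238, 251 and 244 CPM with vehicle, at 169, 170 and 169 CPM with FGF2 and at 212, 208 and 219 CPM with the knockdown, so the knockdown level lay between the others (-0.53 ± 0.03 for FGF2 and 0.33 ± 0.04 for the knockdown). Its relative Csrp1 fell with FGF2 at d2.5 (-1.15 ± 0.04) and rose at d5 (0.46 ± 0.05), as did the contractile filament protein Smtn (-0.91 ± 0.07 and 0.59 ± 0.04) and the tropomyosin Tpm2 (-0.25 ± 0.05 and 0.55 ± 0.04).

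Of the remaining smooth muscle genes, Myh11, Des, Actc1, Cnn1 and Actg2 had few counts at d2.5, and none of them exceeded 4.59 CPM at d5. Myh11, the smooth muscle myosin heavy chain, had between 3 and 19 counts over the 3 libraries of any group, and Des (desmin) between 1 and 9. Actc1 (cardiac actin) had 0 counts in every library, which allows up to 3 counts per library. Cnn1 (calponin 1) had 9, 1 and 0 counts over the libraries with vehicle, with FGF2 and with FGF2 and the knockdown at d2.5, and 19, 26 and 50 at d5. At d5 Cnn1 was at 0.866, 0.538 and 0.764 CPM with FGF2 and at 1.61, 1.4 and 1.15 CPM with the knockdown (log2 fold change 0.95 ± 0.34, adjusted p = 0.0427), a call lost in DESeq2 (0.95) and, with log2 fold changes of 0.77 to 1.06, on leaving out any 1 of 5 libraries (Ctrl+FGF2 replicates 2 and 3, Y/T dKD+FGF2 replicates 1, 2 and 3). Actg2, the enteric smooth muscle actin, had 28, 3 and 2 counts at d2.5 in the same order. By d5 it was at 3.68, 3.03 and 3.44 CPM with vehicle, at 2.51, 3.38 and 3.06 CPM with FGF2 and at 4.34, 4.59 and 4.11 CPM with the knockdown, higher than in Ctrl+FGF2 (0.54 ± 0.17, adjusted p = 0.0207) with no overlap. That call was lost in DESeq2 and on leaving out any 1 of 4 libraries (Ctrl+FGF2 replicates 1 and 3, Y/T dKD+FGF2 replicates 1 and 2), with log2 fold changes between 0.43 and 0.55.

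**Figure D4:**
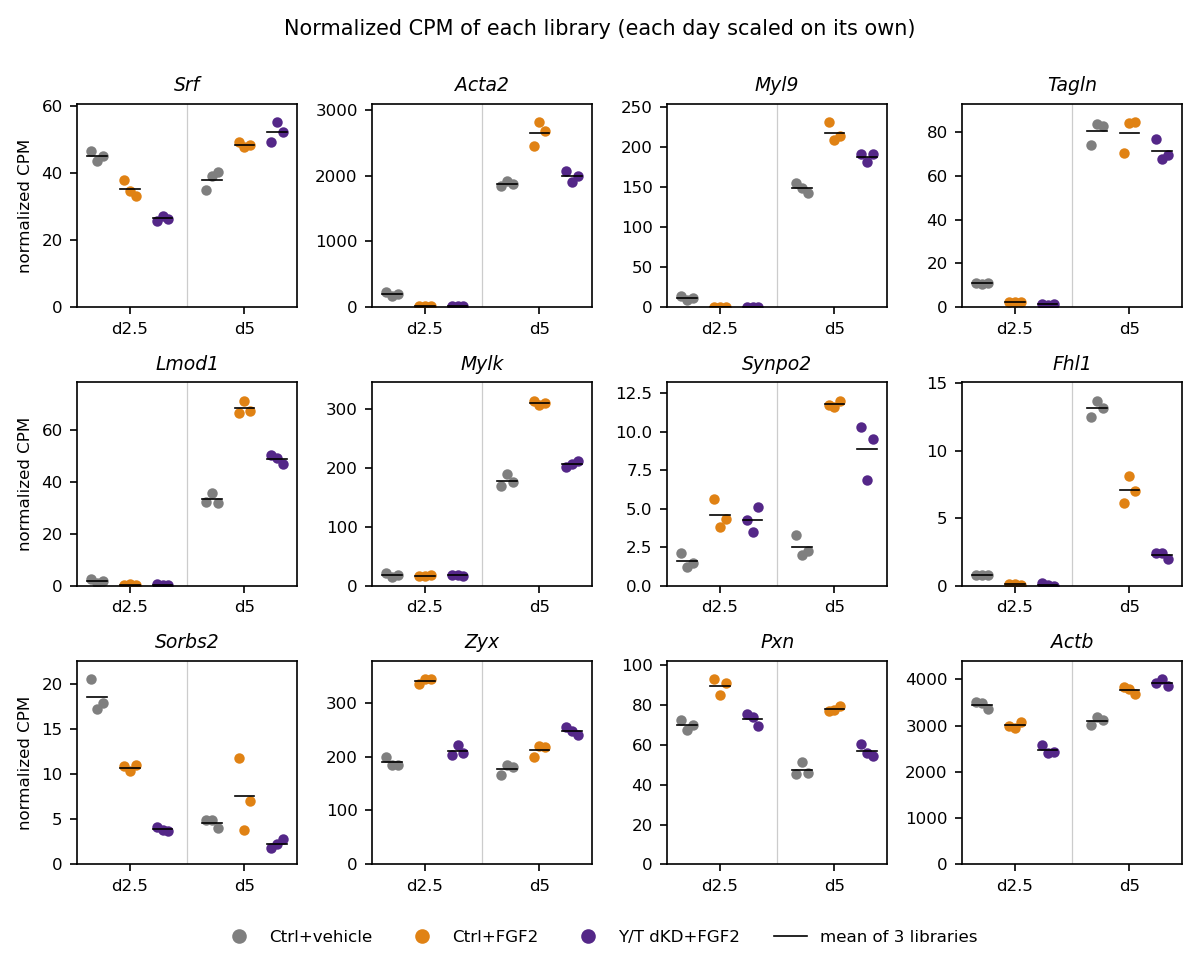
Normalized CPM of each of the 18 libraries for 12 of the genes, by day (x axis) and group (colour), with a line at the mean of the 3 libraries; each day was scaled on its own, so levels compare within a day. The far lower points of Acta2, Myl9, Tagln, Lmod1, Mylk and Fhl1 at d2.5 than at d5 cannot be told apart from a batch difference. Within a day, Srf and Actb step down over the 3 groups at d2.5 and not at d5.

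The general actin and myosin genes changed less and in the same directions. All 15 were tested on both days. With FGF2, 13 were lower and 1 higher at d2.5 (median log2 fold change -0.36), against 34.1% and 33.5% of all genes. At d5, 10 were higher and 2 lower (median 0.17), against 23.5% and 23.7% of all genes. Actb, the cytoplasmic beta-actin often used to normalize expression, was at 3508, 3494 and 3360 CPM with vehicle at d2.5, at 2989, 2945 and 3083 CPM with FGF2 and at 2581, 2403 and 2435 CPM with the knockdown. The 3 groups stepped down without overlap (-0.20 ± 0.03 and then -0.28 ± 0.03). On d5 it was at 3006, 3195 and 3118 CPM, at 3838, 3798 and 3681 CPM and at 3922, 3999 and 3855 CPM, higher with FGF2 (0.28 ± 0.03, adjusted p = 3.2e-06) and not called for the knockdown (0.06 ± 0.03, adjusted p = 0.227). Actg1, the cytoplasmic gamma-actin with a CArG box before its start, moved likewise with FGF2 (-0.28 ± 0.03 at d2.5 and 0.18 ± 0.03 at d5), and the knockdown lowered it at d2.5 (-0.20 ± 0.03) and raised it at d5 (0.15 ± 0.03).

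Per kilobase of exon, the actins changed order between the batches. In Ctrl+vehicle at d2.5, Actb was at 1289 ± 30.4 CPM per kb (SD, n = 3), Actg1 at 638 ± 7.13 and Acta2 at 91.3 ± 15.1, and with FGF2 Acta2 fell to 10.2 ± 0.258 while Actb was at 1122 ± 26.3. At d5 in Ctrl+vehicle Actb was at 1160 ± 35.6 CPM per kb, Acta2 at 854 ± 18.6 and Actg1 at 515 ± 8.04. With FGF2 at d5 Acta2 reached 1203 ± 83.2 CPM per kb beside 1408 ± 30.4 for Actb and 585 ± 4.63 for Actg1. Reads that map to several places were not counted, and the actin genes and their processed copies are nearly identical in sequence, so these levels are uncertain.

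Cnn3, the acidic calponin, fell the most of this group with FGF2 at d2.5. It was at 949, 898 and 922 CPM with vehicle, at 404, 407 and 393 CPM with FGF2 and at 407, 391 and 405 CPM with the knockdown (2.30-fold lower with FGF2, -1.20 ± 0.03, adjusted p = 7.8e-25), and the knockdown comparison was not called (adjusted p = 0.977). At d5 its 9 libraries were between 1006 and 1101 CPM and no comparison was called. Cald1 (caldesmon), which blocks myosin from actin, was lower with FGF2 on both days (-1.11 ± 0.03 and -0.14 ± 0.04), and the tropomyosin Tpm1 fell at d2.5 and rose at d5 (-0.97 ± 0.03 and 0.31 ± 0.04). Of the nonmuscle myosin heavy chains, Myh9 fell at d2.5 (-0.85 ± 0.03) and was not called at d5 (-0.05 ± 0.05), while Myh10 fell (-0.36 ± 0.03) and then rose (0.65 ± 0.03). Myh10 at d5 was at 330, 342 and 336 CPM with vehicle, at 534, 512 and 537 CPM with FGF2 and at 360, 353 and 357 CPM with the knockdown. The knockdown thus lowered Myh10 1.48-fold (-0.56 ± 0.03, adjusted p = 1.0e-09) to a level not called different from Ctrl+vehicle (0.09 ± 0.03, adjusted p = 0.0514).

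Tpm4 and Tagln2 were the genes of this group not called lower with FGF2 at d2.5. Tpm4, a nonmuscle tropomyosin, was between 898 and 956 CPM in all 9 libraries at d2.5. By d5 it was at 1049, 1100 and 1065 CPM with vehicle, at 915, 934 and 936 CPM with FGF2 and at 1224, 1180 and 1236 CPM with the knockdown, so FGF2 lowered it (-0.21 ± 0.03, adjusted p = 6.6e-05) and the knockdown raised it above either control group (0.39 ± 0.03, adjusted p = 1.0e-07). Tagln2, the widely expressed relative of Tagln, was higher with FGF2 at d2.5 (0.36 ± 0.03) and not called at d5 (0.11 ± 0.05, adjusted p = 0.103). The remaining genes of this group, Actn1, Actn4, Cnn2, Myl6, Myl12a and Flna, which encode actin crosslinkers, a calponin and myosin light chains, were all lower with FGF2 at d2.5 (-0.57 for Cnn2 to -0.12 for Actn1) and all higher at d5 (0.12 for Myl12a to 0.58 for Cnn2). The d5 call of Myl12a was lost in DESeq2, without the filter on low counts and without Ctrl+vehicle replicate 3, and its d2.5 call without Ctrl+FGF2 replicate 3.

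Focal adhesion and LIM domain genes, whose proteins tie actin filaments to integrins, split at d2.5. Of 8 tested, 6 were lower with FGF2 (Vcl, Tln1, Fhl2, Pdlim7, Lima1 and Sorbs2) and 2 higher (Zyx and Pxn), against 34.1% and 33.5% of all genes. At d5, 6 of 9 were higher and 1 lower, against 23.5% and 23.7% of all genes. Zyx (zyxin), which goes to tensed stress fibers, was at 199, 185 and 184 CPM with vehicle at d2.5, at 335, 343 and 343 CPM with FGF2 and at 202, 222 and 206 CPM with the knockdown. FGF2 raised it (0.84 ± 0.04, adjusted p = 8.2e-19) and the knockdown lowered it 1.62-fold (-0.70 ± 0.04, adjusted p = 1.3e-14), to a level above that with vehicle by 0.15 ± 0.04. At d5 Zyx was at 165, 185 and 180 CPM with vehicle, at 199, 219 and 218 CPM with FGF2 and at 255, 248 and 240 CPM with the knockdown. On that day both FGF2 (0.26 ± 0.05) and the knockdown (0.23 ± 0.05, adjusted p = 0.00127) went with a higher level, without overlap between groups.

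Pxn (paxillin), an adaptor of focal adhesions, was higher with FGF2 and lower with the knockdown on both days. It was at 72.6, 67.5 and 69.8 CPM, at 92.8, 85.1 and 90.9 CPM and at 75.5, 74 and 69.2 CPM with vehicle, with FGF2 and with the knockdown at d2.5. The d5 libraries were at 45.4, 51.6 and 45.8 CPM, at 76.9, 77.6 and 79.5 CPM and at 60.5, 55.7 and 54.3 CPM. FGF2 raised it 1.63-fold at d5 (0.71 ± 0.06, adjusted p = 1.9e-08), and the knockdown level lay between the others (-0.45 ± 0.06, adjusted p = 5.6e-06). Vcl (vinculin) fell with FGF2 at d2.5 and rose at d5 (-0.58 ± 0.03 and 0.26 ± 0.04), as did Tln1 (talin, -0.51 ± 0.03 and 0.25 ± 0.04), Fhl2 (-0.26 ± 0.06 and 0.38 ± 0.05) and Pdlim7 (-0.62 ± 0.06 and 0.18 ± 0.07). The d5 call of Pdlim7 was lost in DESeq2 (0.17) and, at 0.12 to 0.18, on leaving out any 1 of 4 libraries (Ctrl+vehicle replicates 1 and 3, Ctrl+FGF2 replicates 2 and 3). Lima1, an actin-bundling LIM protein, fell with FGF2 at d2.5 (-1.05 ± 0.03) and overlapped at d5 (0.04 ± 0.06), where the knockdown libraries (1409 to 1434 CPM) lay above both control groups (1058 to 1280 CPM).

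Fhl1 and Sorbs2 showed the largest knockdown effects. Fhl1, a LIM protein abundant in muscle, was near the limit of detection at d2.5, with 32, 5 and 3 counts over the libraries with vehicle, with FGF2 and with the knockdown. By d5 it was at 12.5, 13.7 and 13.2 CPM with vehicle, at 6.15, 8.14 and 7.05 CPM with FGF2 and at 2.41, 2.41 and 2.01 CPM with the knockdown. The groups stepped down without overlap, by 1.84-fold with FGF2 (-0.88 ± 0.12, adjusted p = 9.0e-06) and by a further 3.11-fold with the knockdown (-1.64 ± 0.16, adjusted p = 5.6e-07). Sorbs2, an adaptor of the sorbin family on stress fibers and Z-discs, was at 20.5, 17.2 and 17.9 CPM with vehicle at d2.5, at 10.9, 10.3 and 11 CPM with FGF2 and at 4.18, 3.81 and 3.68 CPM with the knockdown. It too stepped down without overlap (-0.79 ± 0.09 for FGF2 and -1.47 ± 0.13 for the knockdown, adjusted p = 1.5e-09). At d5 Sorbs2 was at 4.91, 4.89 and 4.03 CPM with vehicle, at 11.8, 3.84 and 7.05 CPM with FGF2 and at 1.77, 2.26 and 2.86 CPM with the knockdown. The Ctrl+FGF2 libraries were widely spread and overlapped those with vehicle (0.69 ± 0.28, adjusted p = 0.051), while the knockdown libraries lay below all of them (-1.71 ± 0.32, adjusted p = 5.0e-04).

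Across the list, the knockdown under FGF2 lowered more genes than it raised at d2.5 and was mixed at d5. At d2.5, 19 of 34 tested genes were lower in Y/T dKD+FGF2 than in Ctrl+FGF2, 2 higher (Csrp2 and Vcl) and 13 not called. The call of Vcl (0.11 ± 0.03) was lost, at 0.08 to 0.10, with unstranded counts and without Ctrl+FGF2 replicate 2 or Y/T dKD+FGF2 replicate 1 or 3. The median log2 fold change was -0.20, against 0.00 over all genes. Of all genes tested, 13.6% were called lower and 10.8% higher. At d5, 13 of 37 were lower, 9 higher and 15 not called (median -0.01), against 16.1% and 15.6% of all genes. By role, 9 of 15 actin and myosin genes, 6 of 8 focal adhesion and LIM genes and 3 of 10 smooth muscle genes were lower at d2.5, where several smooth muscle genes had few counts left in Ctrl+FGF2. At d5, 6 of 12 smooth muscle genes (Acta2, Myl9, Mylk, Tpm2, Lmod1 and Synpo2) were lower and 3 higher (Actg2, Cnn1 and Smtn), 3 of 15 actin and myosin genes were lower (Cnn2, Myh10 and Tpm1) and 3 higher (Actg1, Tagln2 and Tpm4), and 4 of 9 focal adhesion and LIM genes were lower (Fhl1, Pxn, Sorbs2 and Tln1) and 3 higher (Lima1, Pdlim7 and Zyx). Of these 22 calls 15 held under every alternative tried at the same threshold, and those of Actg2, Cnn1, Smtn, Synpo2, Tpm2, Tagln2 and Pdlim7 were each lost without at least 1 library. The count of higher genes at d5 was 4 without Y/T dKD+FGF2 replicate 1 and 5 without Ctrl+FGF2 replicate 3. The 6 genes lower with the knockdown on both days were Acta2, Cnn2, Pxn, Sorbs2, Tln1 and Tpm1, and Actg1, Pdlim7, Tagln2 and Zyx were lower at d2.5 and higher at d5. The share of all genes with these pairs of calls over the 2 days was not counted. The d2.5 call of Tpm1 (-0.11 ± 0.03) was lost, at -0.11 to -0.09, in a fit of all 18 libraries and without Ctrl+FGF2 replicate 2 or 3 or Y/T dKD+FGF2 replicate 2.

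**Figure D5:**
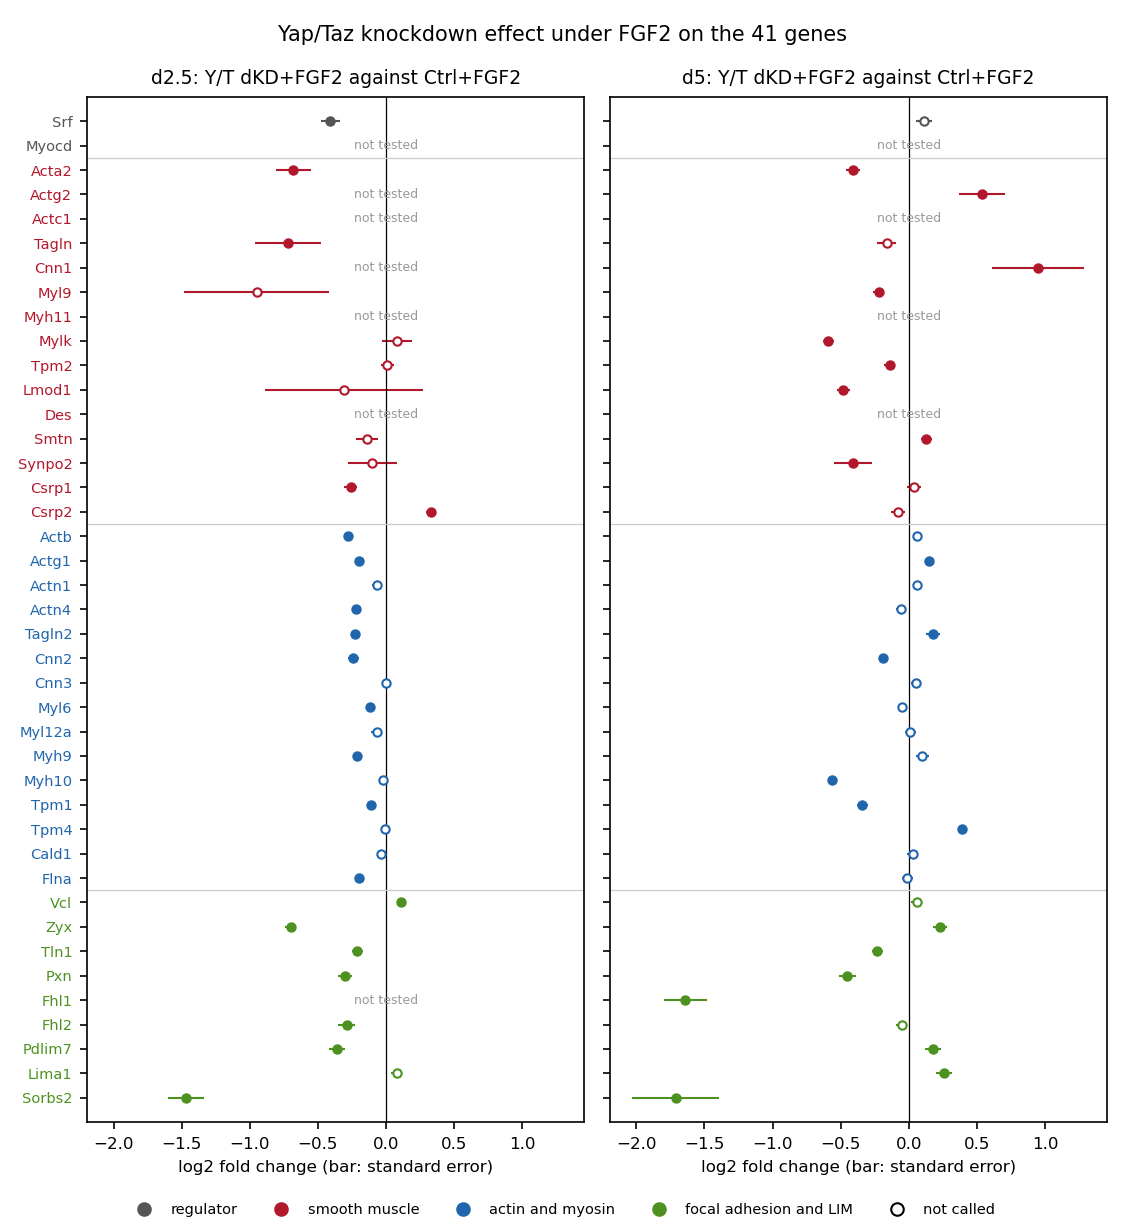
Log2 fold change of Y/T dKD+FGF2 against Ctrl+FGF2 at d2.5 (left) and d5 (right) for each of the 41 genes, colored by role, with the standard error as a bar and open circles for genes not called. Sorbs2 lies lowest at both days (-1.47 and -1.71), and Zyx lies at -0.70 at d2.5 and at 0.23 at d5.

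The knockdown and FGF2 effects of a gene share the Ctrl+FGF2 libraries, so they are set side by side here and not correlated. The share of all genes with the same pair of calls was not counted, so the counts of paired calls describe the list only. At d2.5, 16 genes were lower with FGF2 and lower again with the knockdown, Srf, Acta2, Actb and Actg1 among them, and 3 (Pxn, Tagln2 and Zyx) were higher with FGF2 and lower with the knockdown. At d5, 11 were higher with FGF2 and lower with the knockdown (Acta2, Cnn2, Lmod1, Myh10, Myl9, Mylk, Pxn, Synpo2, Tln1, Tpm1 and Tpm2), 4 were higher in both comparisons and 1 (Fhl1) was lower in both. Against Ctrl+vehicle, Y/T dKD+FGF2 had 28 of 34 genes lower and 3 higher at d2.5 (median -0.61), against 35.7% and 34.1% of all genes. Where the call held and the mean log2 CPM reached 1, the 5 largest of these differences were in Myl9 (-4.76 ± 0.29), Acta2 (-3.85 ± 0.09), Tagln (-3.02 ± 0.17), Sorbs2 (-2.25 ± 0.12) and Csrp1 (-1.41 ± 0.05). At d5, 25 of 37 were higher and 4 lower (median 0.28), against 20.7% and 21.1% of all genes. There the 5 largest, chosen the same way, were in Fhl1 (-2.52 ± 0.15), Synpo2 (1.82 ± 0.19), Sorbs2 (-1.02 ± 0.35, adjusted p = 0.0277), Smtn (0.72 ± 0.04) and Lmod1 (0.55 ± 0.06). The call of Sorbs2 was lost, at -1.02 to -0.86, on leaving out any 1 of 4 libraries (Ctrl+vehicle replicates 1 and 2, Y/T dKD+FGF2 replicates 1 and 2), and the count of lower genes was 2 without Y/T dKD+FGF2 replicate 2.

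The change of the FGF2 effect between days was tested directly, as the effect at d5 minus that at d2.5 in a fit of all 18 libraries. It was called for 36 of 37 tested genes, 33 with a higher and 3 with a lower value at d5, with a median difference of 0.78 against 0.03 over all genes. Over all 14198 genes the difference was called for 60.9%, which describes the list beside all genes and does not test it, given how the list was chosen. Counted by the calls of each day, 21 genes were lower with FGF2 at d2.5 and higher at d5, among them the smooth muscle genes Acta2, Csrp1, Lmod1, Myl9, Smtn and Tpm2 as well as Srf, Actb, Actg1, Flna and Vcl. Pxn, Synpo2 and Zyx were higher on both days, and Cald1 and Csrp2 lower on both. Each day taken alone, 34.1% of all genes were lower at d2.5 and 23.5% higher at d5. The share of all genes with a given pair of calls over the days was not counted. Of the 5 largest differences, 3 were in Myl9 (4.34 ± 0.24, adjusted p = 1.0e-15), Acta2 (3.63 ± 0.11, adjusted p = 6.2e-22) and Lmod1 (3.08 ± 0.35, adjusted p = 8.8e-09). Cnn1 (3.12 ± 1.08, adjusted p = 0.0145) and Actg2 (2.87 ± 0.62, adjusted p = 2.1e-04) made up the 5, but with 1 and 3 counts over the Ctrl+FGF2 libraries at d2.5 their fitted values depend on the prior count. Synpo2 was the gene not called (0.72 ± 0.33, adjusted p = 0.0596). The 3 that went the other way were Zyx (-0.61 ± 0.06), Tagln2 (-0.27 ± 0.06) and Tpm4 (-0.22 ± 0.05). The knockdown effect differed between days for 16 of 37 genes, 12 higher and 4 lower at d5, against 20.9% of all genes called. Zyx had the largest such difference (0.92 ± 0.06, adjusted p = 1.7e-11), and Mylk (-0.67 ± 0.12) and Myh10 (-0.55 ± 0.05) the largest in the other direction.

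The calls of genes with and without a promoter motif are set side by side here, without a test. Of the 8 tested genes with a CArG box in a window, 8 were lower with FGF2 at d2.5 (median log2 fold change -0.48), and of the 22 with a window and no match 17 were lower (median -0.49). Over all genes 34.1% were lower in that comparison. With the knockdown at d2.5, 5 of the 12 genes with a Tead hexamer were lower and 1 higher (median -0.12), and of the 18 with a window and no match 11 were lower and the others not called (median -0.21), against 13.6% lower and 10.8% higher over all genes. At d5, 5 of the 12 were lower and 2 higher (median -0.03), and of the 20 with no match 7 were lower and 6 higher (median 0.04), against 16.1% and 15.6% over all genes. No binding was measured in these data, so these counts describe letters and transcript levels only.

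Other genes of the pathway, listed by name outside the 41, moved in part with them. Of 20 further cytoskeletal genes associated with Srf, 19 were tested. With FGF2 at d2.5, 14 were lower and 3 higher (median log2 fold change -0.38), against 34.1% and 33.5% of all genes. At d5, 11 were higher and 4 lower (median 0.17), against 23.5% and 23.7% of all genes. Palld (palladin, -1.93 at d2.5), Pdlim5 (-1.56) and Tgfb1i1 (-1.04), which all sit on stress fibers, were among the lower ones, and Ankrd1, a common Yap target, was higher (1.56 at d2.5, 0.40 at d5). The knockdown lowered 8 of the 19 at d2.5, Ankrd1 (-0.61 ± 0.08) among them, and raised 0, against 13.6% and 10.8% of all genes. At d5 the knockdown lowered 4 and raised 5 (median -0.03), against 16.1% and 15.6% of all genes.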

How the data were processed

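Poly(A) RNA was sequenced with the SMARTER mRNA-Seq kit, and for each library the authors deposited a file of raw counts by gene with 3 columns (unstranded and either strand), as STAR writes when it counts genes. The submitters' processing notes name FastQC, STAR, Picard, featureCounts and mm10; versions are not given in the sources used here. The strand column that held 96.0% to 96.6% of the stranded counts was used, and rows that name no gene (27.0% to 34.4% of the column) were left out. Reads on several places are not counted in this layout. Of 55335 identifiers, 55154 matched GENCODE M21 with version numbers removed.

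The 9 libraries of a day were fitted together with edgeR 4.0.16 (R 4.3.3), with TMM factors, filterByExpr and the quasi-likelihood test, and differences between days in a fit of all 18. P-values were adjusted by Benjamini-Hochberg over all genes tested. The labels do not say that replicates were separate cultures, so p-values measure the spread between these samples. The members and lists were chosen with earlier results of these data known. Values are given for Srf and Myocd, for the 5 called members with the largest change per comparison (mean log2 CPM of at least 1), for the 5 with the largest difference between days, and for other members as examples of their group. Another gene list of the pathway is not reported here. The scripts were tested on simulated data. Alternatives were RLE and upper-quartile factors, 2 other count filters, a replicate block, unstranded counts, DESeq2 1.42.0, a fit of only the groups compared, all 18 libraries in 1 fit, a threshold of 0.01 and leaving out each library. Whether same-numbered libraries deviate together was checked: their correlation was between -0.082 and 0.157, and that of differently numbered libraries between -0.154 and 0.111. Between Ctrl+vehicle and Ctrl+FGF2 at d5 it was 0.027 to 0.157 for the same number and -0.154 to -0.001 for different numbers. The numbers are not known to pair the libraries and were not taken as pairs, and counts with the number as a block are given below.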

Additional observations from a re-analysis of the deposited data

Results flagged for a closer look

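The effect of FGF2 differed between d2.5 and d5, by a test of the difference itself in a fit of all 18 libraries, for 36 of the 37 tested genes of the list, against 60.9% of all 14198 genes, and the 5 largest of these differences were positive: 4.34 log2 units for Myl9, 3.63 for Acta2, 3.12 for Cnn1, 3.08 for Lmod1 and 2.87 for Actg2. Those of Cnn1 and Actg2 rest on 1 and 3 counts over the Ctrl+FGF2 libraries at d2.5. The effect of the knockdown under FGF2 differed between days for 16 of the 37 genes, against 20.9% of all genes, with the 5 largest by size among those called at 0.92 log2 units for Zyx, -0.67 for Mylk, -0.55 for Myh10, 0.53 for Pdlim7 and 0.52 for Srf. Days are batches in the labels, but each effect is a difference between libraries of the same day. The list was chosen with earlier results of these data known, so the shares do not test it.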

How the results depend on the processing

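No log2 fold change of a gene named by rule (Srf and the 5 largest per comparison) reversed under the alternatives run. Of the 136 counts of members recomputed under settings other than leaving out a library, 132 stayed within 1.5 times the reported count. The exceptions were genes higher with the knockdown at d2.5, 2 as reported and 1 with unstranded counts and at a threshold of 0.01, genes higher with the knockdown at d5, 9 as reported and 4 at 0.01, and genes lower in Y/T dKD+FGF2 than in Ctrl+vehicle at d5, 4 as reported and 2 at 0.01. Leaving out 1 library gave between 1 and 3, between 4 and 9 and between 2 and 5 for these counts. The lowest values came without Ctrl+FGF2 replicate 2 or Y/T dKD+FGF2 replicate 1 or 3 at d2.5 for the first, without Y/T dKD+FGF2 replicate 1 at d5 for the second and without Y/T dKD+FGF2 replicate 2 at d5 for the third, and the cause was not tested. Of the 216 calls of members over the 8 comparisons, 195 held under every setting run at the same threshold. Upper-quartile factors moved the median of all genes for the difference of the FGF2 effect between days from 0.03 to 0.12. With the replicate number as a block, 4 genes were higher and 28 lower with FGF2 at d2.5, 27 and 4 at d5, and 2 and 19 (d2.5) and 10 and 13 (d5) with the knockdown; the numbers are not known to pair the libraries. Counts limit Myl9, Lmod1, Tagln, Actg2, Cnn1 and Fhl1 at d2.5 with FGF2, and Myocd, Des, Myh11 and Actc1 in all groups.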
